A study of Homo sapiens with 26 samples.

Results

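The G1/S and DNA replication genes are 41 genes chosen by name for their part in the entry into S phase and in the copying of DNA, and each was found by its Ensembl identifier among the 57773 genes of the deposited count table. They were followed in TF-1, a human erythroleukemia line whose growth needs GM-CSF. KO groups are clones F4 and A12, labelled TET2 -/-, and WT groups are clones A7 and C4, labelled wild-type for TET2, an enzyme that oxidises methylated cytosine in DNA. Aza groups received 200 nM 5-azacytidine, a cytidine analogue that is built into RNA and DNA and traps DNA methyltransferases, on 3 consecutive days. DMSO groups received the solvent alone, and further libraries were made before treatment. Cells were harvested 72 h and 264 h after the first dose. Batch 1 held 20 libraries, 1 per clone and condition, and batch 2 held 6 libraries of the KO clones, of which 2 carry labels for both the time before treatment and DMSO and entered the fit as a group of their own. The KO groups used here held 2 libraries for Aza at each time, 3 for DMSO at 72 h, 4 for DMSO at 264 h and 2 before treatment, and every WT group held 2. The batch 1 DMSO library of KO clone F4 at 72 h failed the submitters' quality control and was left out, which left 25 libraries. All groups are clones of 1 cell line, so each genotype rests on 2 clones.

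Cells commit to division in late G1, when cyclin E and its kinase inactivate the RB family and free E2F transcription factors. E2F factors activate the genes of the replication machinery. ORC, CDC6 and CDT1 load the MCM helicase on origins, CDC45, MCM10 and the GINS complex activate it, and polymerases, the PCNA clamp and its loader copy the strands. Thymidine enzymes, histone supply, chromatin assembly and uracil removal accompany the fork. Erythroid progenitors divide rapidly, and azacytidine analogues act on DNA mainly in cells that pass through S phase.

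Total counts per library ran from 24992192 to 40187322 (median 27477937), and a count of 3 corresponded to 0.0747 to 0.12 CPM (counts per 1e6 counts), a floor that covers counting error only. The lowest member value was 8.12 CPM, for CCNE2, and all 41 members passed the filter on low counts. TET2 RNA was present in KO libraries at 24.9 to 46.4 CPM (median 32.2, n = 15) and in WT libraries at 22.5 to 30 CPM (median 28.9, n = 10), so it does not check the genotype labels. Of 10 markers of TF-1 cells, 9 were detected in every library, and the GM-CSF receptor gene CSF2RA was listed at 0 in all 25. Markers of B cells, T cells, epithelium and fibroblasts summed to 12.4 to 65.4 CPM in KO and 3.36 to 8.2 CPM in WT, and CD3D alone reached 61.4 CPM in KO while CD3E stayed at or under 0.224 CPM in every library. The 2 WT libraries made before treatment did not resemble the later libraries of their own clone labels. Deviations of same-label libraries from their group means correlated at -0.525 to -0.483 there, against 0.461 to 0.522 among later WT libraries and 0.556 to 0.615 in KO. Counts of called members that moved with those labels, and the values of E2F2, are given both ways.

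Levels were compared between members per kb of exon, as CPM per kb (RPKM, median of 25 libraries). MCM3 led at 163 RPKM, followed by PCNA at 131, MCM7 at 73.7, RPA2 at 70.9, MCM4 at 61.7 and MCM6 at 57.8 RPKM. The helicase subunits MCM2 and MCM5 stood lower, at 39.9 and 20.1 RPKM, although they assemble with MCM3 in 1 ring. These values depend on the deposited exon lengths, which were 4899 bases for MCM2, 7338 for MCM5 and 3650 for MCM3. Their median CPM were 195.7, 147.3 and 594.7 in that order. The GINS subunits lay between 4.04 RPKM for GINS3 and 12.5 RPKM for GINS1, and the lowest levels were those of E2F2 at 3.14 and CCNE2 at 2.21 RPKM. Across libraries CDC6 varied most, from 35.2 to 134 CPM, followed by E2F2 and E2F1 with highest-to-lowest ratios of 2.5 and 2.25, and ORC1 varied least, from 55.2 to 70 CPM.

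E2F sites were the feature searched for in the promoters, and 5 promoters are shown because the values below turn on their genes. RefSeq promoters of GRCh38.p14, 250 bases before to 50 after the gene start, were at hand for 36 of the 41 members. A site was any of TTTCCCGC, TTTCGCGC, TTTGCCGC or TTTGGCGC on either strand, and sites appear in capitals. The windows are chr20:33686336-33686635 on the minus strand for E2F1, chr17:40287629-40287928 on the plus strand for CDC6, chr16:88803539-88803838 on the plus strand for CDT1, chr6:52284693-52284992 on the minus strand for MCM3 and chrX:24693668-24693967 on the plus strand for POLA1. Each is written 5′ to 3′ along its gene.
E2F1: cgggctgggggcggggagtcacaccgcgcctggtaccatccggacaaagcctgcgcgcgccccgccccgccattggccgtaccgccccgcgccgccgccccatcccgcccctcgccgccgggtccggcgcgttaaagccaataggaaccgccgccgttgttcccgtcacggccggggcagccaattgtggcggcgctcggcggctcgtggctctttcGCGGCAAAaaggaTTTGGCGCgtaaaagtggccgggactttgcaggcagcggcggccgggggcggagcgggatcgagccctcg
CDC6: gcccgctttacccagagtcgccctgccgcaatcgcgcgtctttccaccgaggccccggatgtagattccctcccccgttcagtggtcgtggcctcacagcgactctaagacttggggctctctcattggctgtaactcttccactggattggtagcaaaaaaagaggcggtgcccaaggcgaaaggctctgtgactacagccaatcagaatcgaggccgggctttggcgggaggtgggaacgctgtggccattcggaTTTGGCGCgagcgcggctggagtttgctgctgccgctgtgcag
CDT1: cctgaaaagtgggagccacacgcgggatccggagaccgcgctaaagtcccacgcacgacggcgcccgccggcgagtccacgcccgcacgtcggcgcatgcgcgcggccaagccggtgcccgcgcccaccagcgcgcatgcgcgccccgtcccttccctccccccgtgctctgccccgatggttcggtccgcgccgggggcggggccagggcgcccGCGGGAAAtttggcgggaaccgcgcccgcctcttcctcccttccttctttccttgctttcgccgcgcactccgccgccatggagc
MCM3: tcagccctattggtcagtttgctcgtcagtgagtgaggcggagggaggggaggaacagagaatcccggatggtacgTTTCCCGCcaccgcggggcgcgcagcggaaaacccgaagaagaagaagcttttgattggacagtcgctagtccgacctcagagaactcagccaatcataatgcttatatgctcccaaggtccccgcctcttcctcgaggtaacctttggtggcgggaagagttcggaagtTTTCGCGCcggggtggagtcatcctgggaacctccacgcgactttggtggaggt
POLA1: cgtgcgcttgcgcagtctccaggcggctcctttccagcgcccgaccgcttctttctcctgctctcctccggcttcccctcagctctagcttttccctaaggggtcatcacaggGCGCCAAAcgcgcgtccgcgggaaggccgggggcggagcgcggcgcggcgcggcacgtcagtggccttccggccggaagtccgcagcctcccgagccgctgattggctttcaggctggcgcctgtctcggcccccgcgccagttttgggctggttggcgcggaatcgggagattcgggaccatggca

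The E2F motif was present in 19 of 36 member promoters (52.8%), against 908 of 27305 promoters in the table (3.33%). E2F1 carried 2 sites close together and directly before its start, MCM3 carried 2 farther apart, and CDC6, CDT1 and POLA1 carried 1 each. MCM6 had 4 matches, which form 2 pairs of words that overlap on opposite strands, since a match on each strand was counted. A CCAAT box (CCAAT) was in 52.8% of member promoters and 35.7% of all promoters, and an SP1 box (GGGCGG) in 75% and 44.6%; an SP1 box can share letters with an E2F word where the sites adjoin. Both boxes were searched on either strand. Of the members called higher under Aza in both genotypes, as described below, E2F1, CDC25A, CDC6, CDT1, MCM2 and MCM3 held a site. TK1, FEN1, SLBP, CHAF1B, UNG and MCM10, also called higher in both, held none of the E2F words in this window. MCM6, MCM7, PCNA and GINS2, called higher in 1 genotype, held a site. So did POLA1, called lower in both genotypes, GINS1, called lower in WT, and members that were not called, among them E2F2, POLE, RFC3, TYMS and LIG1. No promoter was at hand for CCNE2 and GINS4, also called higher in 1 genotype. Whether sites go with the Aza values was not tested.

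At 72 h the members shifted upward under Aza in both genotypes. In KO, 16 members were called higher and 1 lower in Aza than in DMSO (41.5% of 41), where 20.1% of all 18391 genes tested were called (11.6% higher and 8.47% lower). In WT, 14 were called higher and 2 lower (39%), where 18.3% of all genes were called (9.26% higher and 9.04% lower). The median log2 difference of the members was 0.18 in KO and 0.14 in WT, beside 0.01 and 0 over all genes, and 37 and 35 members lay above 0. A call is an adjusted p under 0.05 in edgeR's quasi-likelihood test, adjusted over all genes by Benjamini and Hochberg, and differences are log2 of Aza over DMSO with the standard error (SE) of the fit. Both sets of calls share 12 genes, which are 75% of those higher in KO and 85.7% of those higher in WT: E2F1, CDC25A, CDC6, CDT1, MCM2, MCM3, MCM10, FEN1, TK1, SLBP, CHAF1B and UNG. CCNE2, MCM6, MCM7 and PCNA were called in KO alone and GINS2 and GINS4 in WT alone, but the difference of the Aza effect between KO and WT was called for 0 members and 0% of all genes in edgeR at either time, and for 0 members in DESeq2. At an unadjusted p under 0.05 in edgeR, 1 member differed so at 72 h and 2 at 264 h, beside 631 and 571 of all 18391 genes. These are bulk libraries, in which fewer cells of a type and less RNA per cell cannot be told apart.

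In KO at 72 h, both Aza libraries are of batch 1 and 2 of the 3 DMSO libraries are of batch 2. With batch 1 alone, which leaves the pair of clone A12, the member median in KO was 0.172, beside 0.002 over all genes. Fewer members and fewer of all genes were called there than in the main fit. Pairing bears on the counts of called members: without the clone terms 11 members were called in KO (10.7% of all genes) and 7 in WT (9.42% of all genes). The calls lost there were those of CDC6, MCM7, MCM10, PCNA, CHAF1B and UNG in KO and of CDC6, MCM2, MCM10, GINS2, FEN1, TK1, SLBP, CHAF1B and UNG in WT. Without the KO Aza library of clone A12 the member median was 0.11, beside -0.007 over all genes. In WT it was 0.124 without the Aza library of C4, 0.157 without the DMSO library of A7 and 0.144 without the DMSO library of C4. Medians over all genes were -0.002, 0.001 and 0.004 in that order. Each of these fits called fewer members and fewer of all genes than the main fit. Among same-clone pairs of batch 1, 31 members were higher in Aza in 3 of 3 pairs, where 30.3% of all genes were so, and GINS1, POLA1, RFC3 and TYMS were lower in 3 of 3, where 29.8% of all genes were. Members above 0 numbered 37 in the A12 pair, 34 in A7 and 33 in C4 (50.4%, 49.8% and 50.6% of all genes). In clone F4, whose only passing DMSO library at 72 h is of batch 2, they numbered 23 (53.2% of all genes). No value of the Aza groups overlapped the DMSO groups for 17 members higher and 1 lower in KO (18.2% and 17.0% of all genes) and for 24 higher and 4 lower in WT (26.6% of all genes each way).

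**Figure D1:**
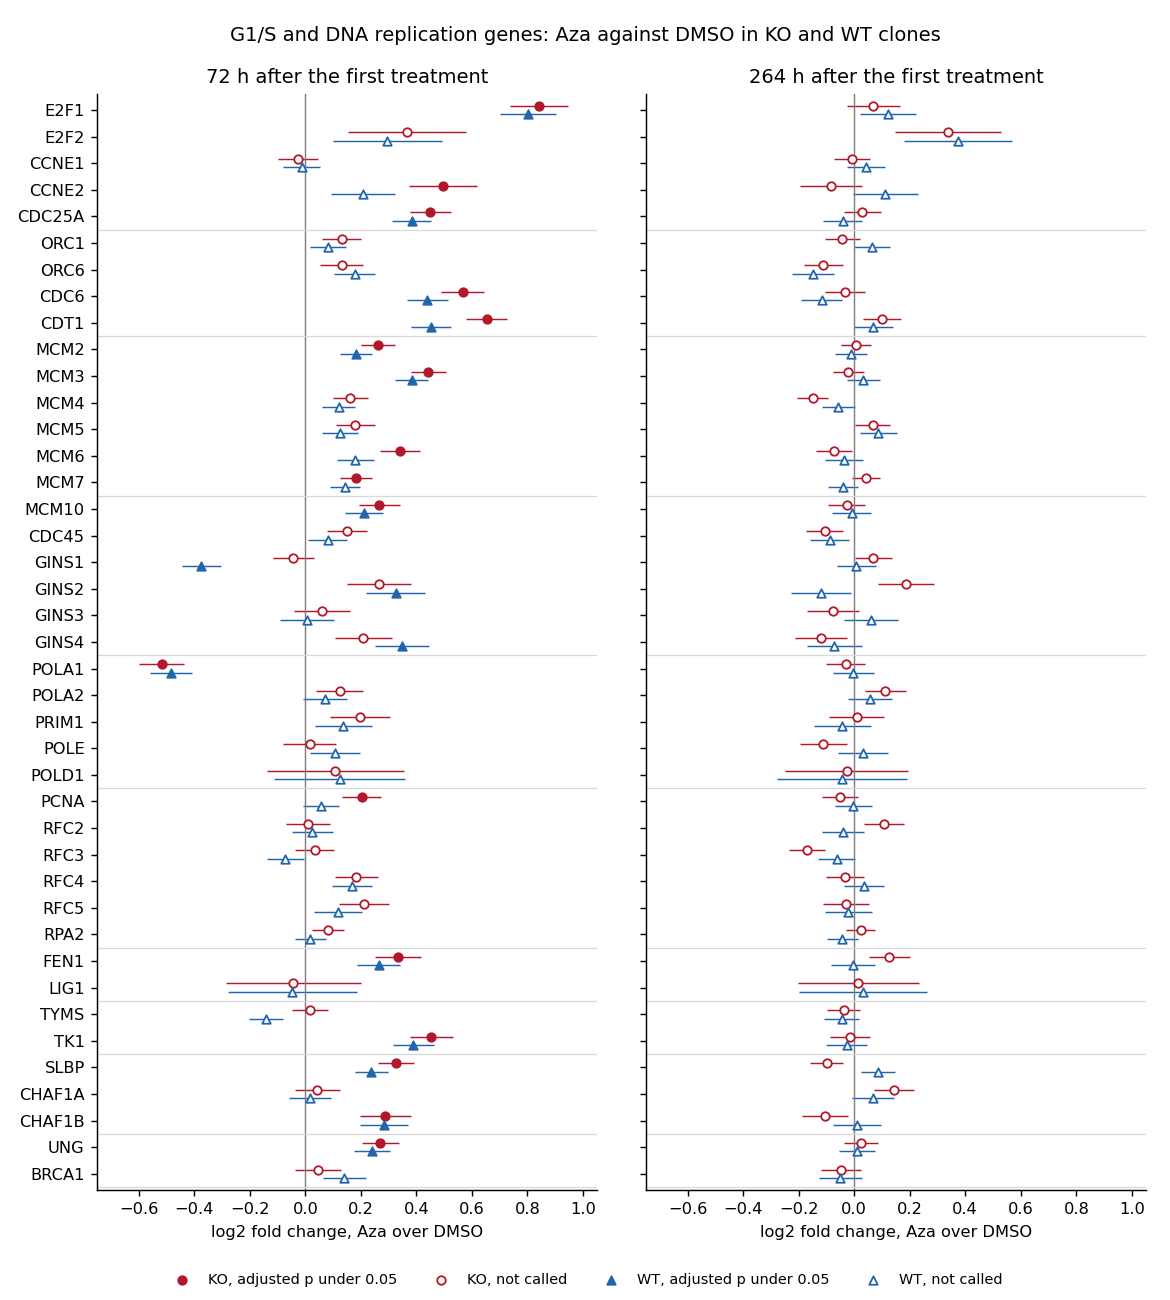
Log2 fold change of Aza over DMSO for the 41 genes at 72 h (left) and 264 h (right), with bars of 1 SE from the edgeR fit; circles are KO and triangles WT, filled where the adjusted p was under 0.05, and grey lines part the roles. At 72 h most points lie to the right of 0, with E2F1 farthest at 0.84 in KO and 0.8 in WT and POLA1 lowest at -0.52 and -0.48, while at 264 h no point is filled.

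Values per library follow the order F4 then A12 for KO Aza, A12 of batch 1 then F4 and A12 of batch 2 for KO DMSO, and A7 then C4 for WT. Among the transcription factors and G1 regulators, E2F1, an activator of S phase genes, moved most of all members. It was at 41.9 and 40.5 CPM in KO Aza, against 21.9, 30.7 and 23.4 CPM in KO DMSO, and at 37.1 and 49.3 CPM in WT Aza, against 22.2 and 27.2 CPM in WT DMSO. Every Aza library lay above every DMSO library of its genotype. The log2 differences were 0.84 in KO (SE 0.11, adjusted p = 2.43e-06) and 0.8 in WT (SE 0.1, adjusted p = 2.37e-06). CDC25A, the phosphatase that activates the cyclin E kinase, was at 104 and 109 CPM in KO Aza, against 79.9, 85.7 and 75.7 CPM in KO DMSO, and at 107 and 124 CPM in WT Aza, against 83.7 and 92.8 CPM in WT DMSO. It rose without overlap in both genotypes, by 0.45 (SE 0.07, adjusted p = 9.26e-05) and 0.38 (SE 0.07, adjusted p = 0.000334).

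Of the cyclin E genes, which encode the activating subunits of the G1/S kinase, 1 was called and in KO alone. CCNE2 was at 14.7 and 12.8 CPM in KO Aza, against 9.72, 8.97 and 8.41 CPM in KO DMSO (log2 0.5, SE 0.12, adjusted p = 0.00484), and at 14.4 and 13.8 CPM in WT Aza, against 11.8 and 12.6 CPM in WT DMSO (0.21, SE 0.11, adjusted p = 0.236). Its KO call was lost without the Aza library of F4 (0.41, adjusted p = 0.0617) and within batch 1 (0.46, adjusted p = 0.0588), and 37.1% of its exon bases overlap INTS8 on the opposite strand, which a count without strand cannot separate. CCNE1 was not called, at log2 -0.03 in KO and -0.01 in WT. E2F2, the second activator E2F of the list, was at 16.5 and 18.2 CPM in KO Aza, against 13.6, 16.4 and 14 CPM in KO DMSO, and at 19.3 and 30.1 CPM in WT Aza, against 15.4 and 24.9 CPM in WT DMSO. It was higher in Aza in 3 of 3 same-clone pairs of batch 1, with differences of 0.37 in KO (SE 0.21, adjusted p = 0.262) and 0.3 in WT (SE 0.2, adjusted p = 0.356) that were not called. Its clones C4 and A7 differ, and the WT libraries before treatment carry those levels under exchanged labels. With these 2 libraries left out the adjusted p was 0.00829 in KO and 0.0205 in WT, and with their labels exchanged 0.0139 and 0.0319.

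Of the 4 origin licensing genes, CDC6 and CDT1 rose in both genotypes and the origin recognition subunits ORC1 and ORC6 did not pass the test. CDT1, which recruits the helicase to origins, was at 118 and 108 CPM in KO Aza, against 68.4, 108 and 101 CPM in KO DMSO, and at 97.6 and 111 CPM in WT Aza, against 68.9 and 83.6 CPM in WT DMSO. In KO the highest DMSO library, of batch 2, and the lower Aza library both stood at 108 CPM, while the A12 pair within batch 1 stood at 108 against 68.4 CPM. The fitted differences were 0.65 in KO (SE 0.07, adjusted p = 6.67e-07; 0.69 within batch 1) and 0.45 in WT (SE 0.07, adjusted p = 4.75e-05). CDC6, the loading ATPase, was at 64.6 and 105 CPM in KO Aza, against 75.4, 43.8 and 68.7 CPM in KO DMSO, and at 108 and 134 CPM in WT Aza, against 85.8 and 91.8 CPM in WT DMSO. Pooled over clones the KO groups overlap, because F4 runs lower than A12, and within each KO clone Aza was higher. CDC6 rose by 0.57 in KO (SE 0.08, adjusted p = 9.65e-06) and 0.44 in WT (SE 0.07, adjusted p = 0.000115), and neither was called without the clone terms. ORC1 was at 67.4 and 66.6 CPM in KO Aza, against 60.5, 67.8 and 63.1 CPM in KO DMSO (0.13, SE 0.07, adjusted p = 0.204), and its WT difference was 0.08 (adjusted p = 0.458).

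All 6 subunits of the MCM2-7 helicase lay above 0 in both genotypes, and 4 were called higher in KO and 2 in WT. MCM3 was at 831 and 774 CPM in KO Aza, against 581, 610 and 578 CPM in KO DMSO, and at 732 and 762 CPM in WT Aza, against 571 and 575 CPM in WT DMSO. The groups stood clear of each other, with differences of 0.44 (SE 0.06, adjusted p = 1.32e-05) and 0.38 (SE 0.06, adjusted p = 4.38e-05). MCM6 was at 299 and 286 CPM in KO Aza, against 236, 226 and 202 CPM in KO DMSO (0.34, SE 0.07, adjusted p = 0.00134), and at 284 and 321 CPM in WT Aza, against 261 and 273 CPM in WT DMSO (0.18, SE 0.07, adjusted p = 0.0698). MCM2 was at 217 and 211 CPM in KO Aza, against 174, 222 and 193 CPM in KO DMSO, and at 212 and 231 CPM in WT Aza, against 185 and 206 CPM in WT DMSO. Its groups overlap in KO, and the differences were 0.26 (SE 0.06, adjusted p = 0.0026) and 0.18 (SE 0.06, adjusted p = 0.0257). The KO call of MCM2 was lost without the Aza library of A12 (0.2, adjusted p = 0.0861), and its WT call was lost without any 1 of the 4 WT libraries compared (0.15 to 0.21, adjusted p = 0.0748 to 0.25). MCM7 passed in KO at 0.18 (SE 0.06, adjusted p = 0.0234), which was lost without the Aza library of A12 (0.11) or the batch 1 DMSO library of A12 (0.17). MCM4 at 0.16 and 0.12 and MCM5 at 0.18 and 0.12 were not called in KO or WT.

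Of 6 genes of helicase activation, MCM10 was called higher in both genotypes. It was at 120 and 99 CPM in KO Aza, against 76.9, 101 and 78.3 CPM in KO DMSO, and at 115 and 142 CPM in WT Aza, against 106 and 116 CPM in WT DMSO. Both pairs of groups overlap when clones are pooled, and the differences of 0.27 in KO (SE 0.07, adjusted p = 0.0111) and 0.21 in WT (SE 0.07, adjusted p = 0.0323) were not called without the clone terms. They were also lost without the Aza library of A12 (0.19) or the batch 1 DMSO library of A12 (0.17) in KO, and in WT without the Aza library of C4 (0.1) or either DMSO library (0.21 and 0.2). CDC45, which completes the active helicase with GINS, was at 52 and 48.8 CPM in KO Aza, against 43.1, 54 and 45.3 CPM in KO DMSO, and was not called (0.15 in KO, 0.08 in WT).

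The 4 GINS subunits form 1 complex, of which 2 transcripts were called higher and 1 lower in WT and 0 in KO. GINS1 was at 49.7 and 53.7 CPM in KO Aza, against 55.1, 51.4 and 50 CPM in KO DMSO, and at 51.1 and 47.6 CPM in WT Aza, against 64.5 and 63.6 CPM in WT DMSO. In WT both Aza libraries lay below both DMSO libraries (log2 -0.38, SE 0.07, adjusted p = 0.000448), and in KO the groups overlapped (-0.04, adjusted p = 0.741). The difference between these 2 effects was 0.33 (SE 0.1, unadjusted p = 0.0036), the only member under 0.05 before adjustment, with an adjusted p = 1. GINS2 was at 23.5 and 21 CPM in KO Aza, against 16.3, 24.5 and 21.1 CPM in KO DMSO (0.27, SE 0.11, adjusted p = 0.11), and at 25.5 and 29.1 CPM in WT Aza, against 19.6 and 24.1 CPM in WT DMSO (0.33, SE 0.11, adjusted p = 0.0344). GINS4 was at 31 and 33.9 CPM in WT Aza, against 23.9 and 27.2 CPM in WT DMSO (0.35, SE 0.1, adjusted p = 0.0125). Each of these WT calls, GINS2 at 0.26 to 0.38 and GINS4 at 0.3 to 0.39, was lost without any 1 of the 4 WT libraries, and 23.6% of the GINS4 exon bases overlap a gene on the opposite strand. GINS3 stayed at 0.06 and 0.01.

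**Figure D2:**
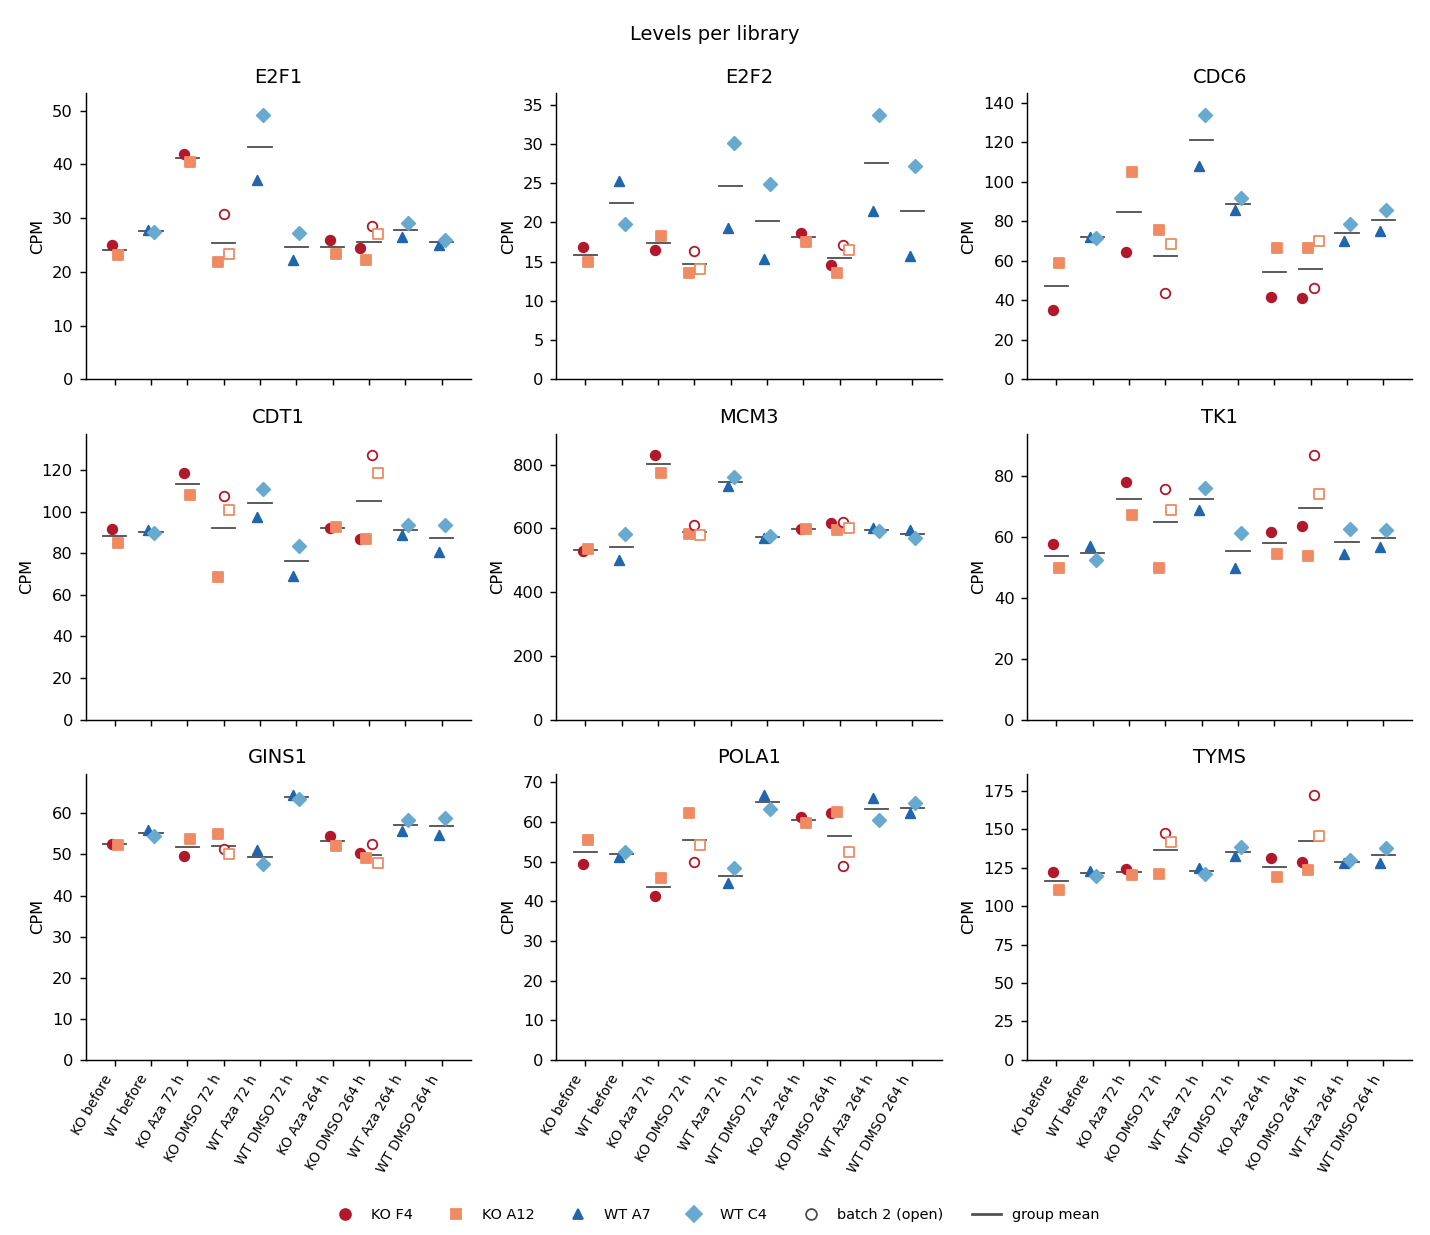
CPM of 9 genes in the passing libraries by genotype, treatment and time, without the batch 2 group labelled both before treatment and DMSO. There is 1 point per library, with colour and shape for the clone, open points for batch 2 and a bar at the group mean. E2F1 and MCM3 stand highest in the 72 h Aza groups, at 37.1 to 49.3 and 732 to 831 CPM, POLA1 stands lowest there, at 41.4 to 48.4 CPM, and GINS1 is lower in WT Aza than in WT DMSO.

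Among the polymerase and primase genes, POLA1, the catalytic subunit of the polymerase that makes the primer, was the 1 member called lower in both genotypes. It was at 41.4 and 45.8 CPM in KO Aza, against 62.3, 50 and 54.3 CPM in KO DMSO, and at 44.5 and 48.4 CPM in WT Aza, against 66.8 and 63.2 CPM in WT DMSO. Aza libraries lay below all DMSO libraries, by -0.52 in KO (SE 0.08, adjusted p = 4.03e-05) and -0.48 in WT (SE 0.08, adjusted p = 4.6e-05). Its partners did not follow it: POLA2 was at 0.12 and 0.07 and PRIM1 at 0.2 and 0.14, none called. POLA1 spans 303.1 kb (chromosome X, 24712036 to 25015103, hg19), the longest of the members, followed by RFC3 at 148.5 kb. Of 504 tested genes spanning at least 300 kb, a bound chosen after POLA1 was seen, 190 were called lower and 15 higher in KO (37.7% lower, against 8.47% of all genes), and 197 lower and 11 higher in WT (39.1%, against 9.04%). Whether gene length plays a part in the value of POLA1 was not tested. POLE, the leading strand polymerase, was at 69.9 and 67.4 CPM in KO Aza, against 61.1, 63.7 and 62.2 CPM in KO DMSO, yet its fitted difference was 0.01 (SE 0.1, adjusted p = 0.936), and 0.15 within batch 1 (adjusted p = 0.348).

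Of 6 clamp, clamp loader and single-strand binding genes, 1 was called higher in KO and 0 in WT. PCNA, the sliding clamp, was at 217 and 190 CPM in KO Aza, against 170, 195 and 170 CPM in KO DMSO, and at 219 and 231 CPM in WT Aza, against 206 and 227 CPM in WT DMSO. The groups overlap in both genotypes. Its KO difference of 0.2 (SE 0.07, adjusted p = 0.0427) held in 4 of 14 alternatives and was 0.15 within batch 1 (adjusted p = 0.241). It was lost without the Aza library of F4 (0.21) or A12 (0.17) and without either batch 2 DMSO library (0.19 and 0.2), and its WT difference was 0.06. RFC3, a loader subunit, was at 121 and 123 CPM in KO Aza, against 127, 89.9 and 101 CPM in KO DMSO, and at 124 and 131 CPM in WT Aza, against 136 and 132 CPM in WT DMSO (0.03 and -0.07, neither called). RFC2, RFC4, RFC5 and RPA2 lay between 0.01 and 0.21 in KO and between 0.02 and 0.17 in WT, with 0 called.

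Of the 2 genes that finish Okazaki fragments, 1 was called. FEN1, the flap nuclease, was at 118 and 111 CPM in KO Aza, against 90.1, 100 and 90.8 CPM in KO DMSO (0.33, SE 0.08, adjusted p = 0.00446), and at 121 and 133 CPM in WT Aza, against 104 and 107 CPM in WT DMSO (0.26, SE 0.08, adjusted p = 0.0174). Groups did not overlap, and the WT call was lost without any 1 of the 4 WT libraries (0.23 to 0.29, adjusted p = 0.0709 to 0.17). LIG1, the ligase, was not called (-0.04 in KO, -0.05 in WT).

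Of the 2 thymidine pathway genes, TK1 was called higher in both genotypes and TYMS in neither. TK1, the salvage kinase, was at 78 and 67.1 CPM in KO Aza, against 49.8, 75.7 and 69 CPM in KO DMSO, and at 68.8 and 76.2 CPM in WT Aza, against 49.8 and 61.3 CPM in WT DMSO. The KO groups overlap, because both batch 2 DMSO libraries are high, and the A12 pair within batch 1 stood at 67.1 against 49.8 CPM. Fitted with batch and clone, TK1 rose by 0.45 in KO (SE 0.08, adjusted p = 0.00016; 0.43 within batch 1) and by 0.39 in WT (SE 0.07, adjusted p = 0.000527; not called without the clone terms). TYMS, which makes thymidylate by the other route, was at 124 and 121 CPM in KO Aza, against 121, 148 and 142 CPM in KO DMSO, and at 125 and 121 CPM in WT Aza, against 133 and 138 CPM in WT DMSO. It was not called (0.02 in KO; -0.14 in WT, adjusted p = 0.119), and 26.2% of its exon bases overlap ENOSF1 on the opposite strand.

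SLBP, which binds histone mRNA, was at 120 and 109 CPM in KO Aza, against 90.9, 96.1 and 87.4 CPM in KO DMSO (0.33, SE 0.07, adjusted p = 0.000681), and at 123 and 132 CPM in WT Aza, against 107 and 110 CPM in WT DMSO (0.24, SE 0.06, adjusted p = 0.00737). Of the subunits of chromatin assembly factor 1, CHAF1B was at 68.4 and 64.6 CPM in KO Aza, against 54.7, 52.1 and 51.1 CPM in KO DMSO (0.29, SE 0.09, adjusted p = 0.0269), and rose in WT by 0.28 (SE 0.09, adjusted p = 0.0239). CHAF1A, at 68.8 and 80.1 CPM in KO Aza, against 71, 78.2 and 79.7 CPM in KO DMSO, did not pass (0.04 in KO, 0.02 in WT). UNG, the uracil glycosylase, was at 96.4 and 106 CPM in KO Aza, against 86.4, 101 and 101 CPM in KO DMSO (0.27, SE 0.07, adjusted p = 0.00575), and at 94.4 and 104 CPM in WT Aza, against 82.8 and 85.3 CPM in WT DMSO (0.24, SE 0.07, adjusted p = 0.0105). BRCA1, of homologous recombination repair, was at 47.6 and 48.9 CPM in KO Aza, against 44.7, 36.8 and 36.3 CPM in KO DMSO (0.05, adjusted p = 0.756), and at 0.14 in WT. The CHAF1B call in KO was lost within batch 1 (0.23, adjusted p = 0.157). The CHAF1B calls were also lost without the Aza library of A12 (0.23) or the F4 DMSO library (0.24) in KO and without the Aza library of C4 (0.2) or the DMSO library of A7 (0.22) in WT. UNG was lost in KO without the Aza library of A12 (0.22) and, with SLBP, in WT without the Aza library of C4 (0.18 and 0.21) or either DMSO library (UNG 0.24 and 0.22, SLBP 0.24 and 0.22).

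At 264 h no member was called in either genotype in edgeR, and DESeq2 called 0 in both. Over all genes edgeR called 0.0979% in KO and 0.500% in WT. In edgeR 2 members in KO and 0 in WT had an unadjusted p under 0.05, beside 1188 and 1467 of all 18391 genes. E2F1 was at 26 and 23.2 CPM in KO Aza, against 24.4, 22.2, 28.5 and 27 CPM in KO DMSO (F4 and A12 of batch 1, then of batch 2), and at 26.5 and 29 CPM in WT Aza, against 25 and 25.9 CPM in WT DMSO. Its differences were 0.07 (SE 0.1) and 0.12 (SE 0.1). MCM3 was at 598 and 597 CPM in KO Aza, against 618, 595, 620 and 601 CPM in KO DMSO, and at 600 and 591 CPM in WT Aza, against 595 and 569 CPM in WT DMSO. The 2 members below 0 at an unadjusted p were MCM4 at -0.15 and RFC3 at -0.17 in KO. E2F2 had the highest difference of the members in both genotypes, at 18.7 and 17.6 CPM in KO Aza, against 14.6, 13.5, 17.1 and 16.5 CPM in KO DMSO (0.34, SE 0.19, adjusted p = 0.812), and at 21.5 and 33.8 CPM in WT Aza, against 15.7 and 27.2 CPM in WT DMSO (0.37, SE 0.2, adjusted p = 0.697). It was higher in 4 of 4 same-clone pairs of batch 1, and with the WT libraries from before treatment left out it was the 1 member called in WT (0.38, adjusted p = 0.0173), but not in KO (adjusted p = 0.0993).

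The change of the Aza effect with time was tested directly. In KO the effect at 264 h was lower than at 72 h for 15 members and higher for 1 (39%), where 13.1% of all genes differed (7.67% lower and 5.48% higher). In WT it was lower for 6 and higher for 2 (19.5%), where 6.83% of all genes differed (2.83% lower and 4.00% higher). Medians over the members were -0.21 and -0.17, beside -0.01 and 0 over all genes. Of the members called higher at 72 h, 14 of 16 in KO and 6 of 14 in WT were among those whose effect was lower later; both tests use the same 72 h libraries. E2F1 differed by -0.77 in KO (SE 0.13, adjusted p = 0.000159) and -0.68 in WT (SE 0.14, adjusted p = 0.00329), and CDC6 by -0.6 (SE 0.1, adjusted p = 0.000111) and -0.56 (SE 0.1, adjusted p = 0.00121). POLA1 moved the opposite way, by 0.49 (SE 0.1, adjusted p = 0.001) and 0.48 (SE 0.11, adjusted p = 0.00503), as did GINS1 in WT by 0.38 (SE 0.1, adjusted p = 0.0187). Counts fell without the clone terms to 9 in KO (4.90% of all genes) and 2 in WT (2.19% of all genes). Within batch 1 the member median in KO was -0.22, and without the KO Aza library of A12 at 72 h it was -0.15.

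In DMSO alone, member medians between 264 h and 72 h were 0 in KO and -0.02 in WT. In KO, CDT1 was the 1 member called between 264 h and 72 h (2.44% of members, 4.68% of all genes), higher by 0.26 (SE 0.06, adjusted p = 0.00943). It stood at 86.8, 86.7, 127 and 119 CPM in KO DMSO at 264 h, against 68.4, 108 and 101 CPM in KO DMSO at 72 h, so the groups overlap and batch 2 is high at both times. The call was lost without the clone terms (0.28, adjusted p = 0.109), within batch 1 (0.32, adjusted p = 0.361) and without the batch 2 library of A12 at 264 h (0.27, adjusted p = 0.0778). In WT 0 members were called in edgeR (0.00544% of all genes) and 0 in DESeq2. An unadjusted p under 0.05 in edgeR was found for 3 members, beside 1511 of all 18391 genes. Among these members was CCNE2, at 8.69 and 9.82 CPM in WT DMSO at 264 h, against 11.8 and 12.6 CPM in WT DMSO at 72 h (-0.4).

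No member passed the test between KO and WT clones. Of 41 members 0 were called in edgeR, and 0 in DESeq2, before treatment, where 0.0543% of all genes were called, in 264 h DMSO (0.208%), 72 h Aza (0.190%) or 264 h Aza (0.0488%). In edgeR 2, 1, 4 and 4 members in that order had an unadjusted p under 0.05. Over all genes tested, 1322 of 16560, 1827 of 16333, 1566 of 16322 and 1909 of 16380 had one. Member medians were -0.05, -0.08, -0.07 and -0.08. RPA2, a subunit of the single-strand binding protein, was under 0.05 before adjustment in all 4 conditions. It was at 147 and 166 CPM in KO, against 124 and 123 CPM in WT, before treatment (0.36, SE 0.1, adjusted p = 0.276), and at 151 and 183 CPM in KO Aza, against 133 and 126 CPM in WT Aza, at 72 h (0.36, SE 0.11, adjusted p = 0.337). KO libraries of batch 1 lay above all WT libraries in each of these conditions. Over batch 1 its KO minus WT difference was 0.34, beside a median of 0.21 for its 120 expressed neighbours within 5 Mb on chromosome 1. Values of the KO clones that did not overlap the WT clones were higher for 3 members and lower for 15 before treatment (17.7% and 19.5% of all genes). In 264 h DMSO they were 4 and 19 (21.0% and 23.4%), in 72 h Aza 2 and 18 (20.6% and 19.7%), and in 264 h Aza 1 and 22 (21.0% and 23.3%).

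Clones of the same genotype also differed from each other. CDC6 was at 59 to 105 CPM in KO clone A12 (median 67.7, n = 8) and at 35.2 to 64.6 CPM in KO clone F4 (median 41.7, n = 7), a mean log2 difference of 0.68, A12 minus F4, over 7 matched pairs of libraries, while its neighbours within 5 Mb had a median of -0.02. It was at 69.9 to 108 CPM in WT clone A7 and 78.5 to 134 CPM in WT clone C4 after treatment began (n = 4 each), and KO minus WT for CDC6 was -0.6 before treatment (SE 0.26, adjusted p = 0.692). RFC4 and MCM10 ran lower in A12 than in F4, by -0.42 and -0.36, and their neighbours had medians of -0.25 and -0.4. In WT, POLD1, the lagging strand polymerase, was at 94.3 to 102 CPM in C4 and 140 to 158 CPM in A7 after treatment began, and LIG1 at 50 to 55.9 CPM in C4 and 71.6 to 74 CPM in A7 (n = 4 each). Both genes lie on chromosome 19, and C4 minus A7 was -0.59 for POLD1 and -0.47 for LIG1, while their neighbours had medians of -0.08 and -0.03. Before treatment these levels stood under the other labels, with POLD1 at 146 CPM in the library labelled C4 and 94.3 CPM in that labelled A7, and LIG1 at 75.6 CPM in C4 and 46.4 CPM in A7. With those labels exchanged POLD1 and LIG1 were still not called at 72 h.

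**Figure D3:**
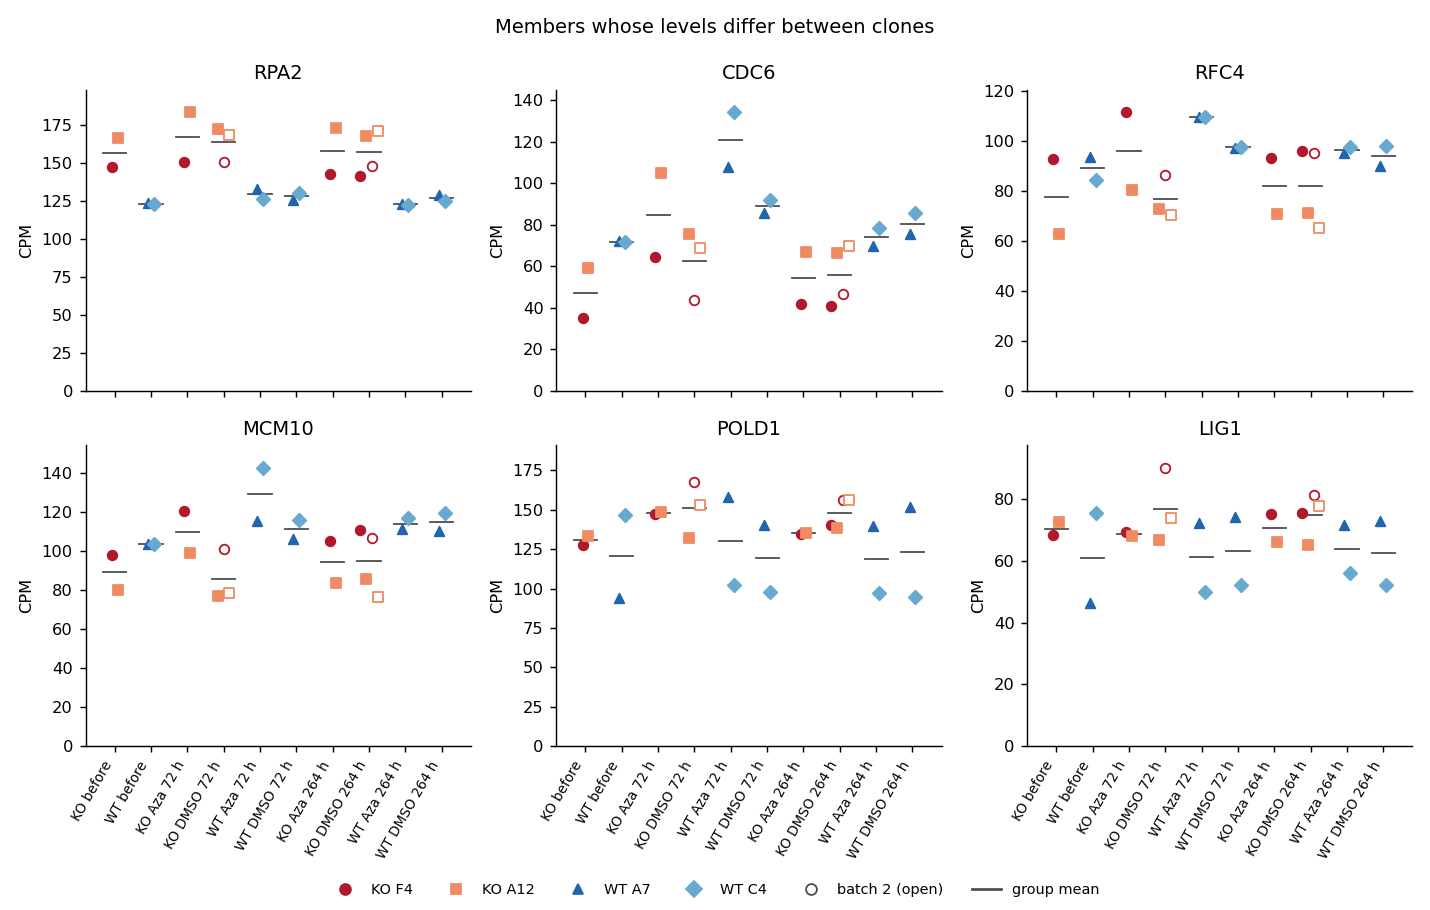
CPM of 6 genes in the passing libraries by genotype, treatment and time, without the batch 2 group labelled both before treatment and DMSO. There is 1 point per library, with colour and shape for the clone, open points for batch 2 and a bar at the group mean. Among the libraries shown RPA2 is higher in both KO clones than in WT, and CDC6 is higher in A12 than in F4 throughout. With the group not shown, RPA2 in F4 went down to 129.3 CPM, while A7 reached 133.1 CPM. POLD1 and LIG1 separate the WT clones, with the order of the labels turned round before treatment.

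Related genes outside the 41 were counted from lists of the same pathways. Of 31 other E2F, RB and G1 cyclin or kinase genes, 6 were called higher and 4 lower at 72 h in KO (32.3%). In WT 6 were called higher and 7 lower (41.9%), and medians were 0.01 and -0.02. Over all genes 20.1% were called in KO and 18.3% in WT. MYBL2, an E2F target, was higher by 0.68 in KO (SE 0.07, adjusted p = 2.79e-07) and 0.65 in WT (SE 0.07, adjusted p = 2.25e-07). CDKN1A, which encodes the inhibitor p21, was higher by 1.28 (SE 0.27, adjusted p = 0.00154) and 1.46 (SE 0.3, adjusted p = 0.0013), and the repressor E2F6 by 0.39 and 0.25. RB1 was lower by -0.32 and -0.42 and TFDP1, the E2F dimerisation partner, by -0.21 and -0.28 in KO and WT. CDK6 was lower by -0.59 in KO and -0.53 in WT, and cyclin D1 (CCND1) by -0.4 in KO and -0.59 in WT. In this list 17 genes lay above 0 in KO and 15 in WT. CCND1 was the gene of the list called at 264 h, lower by -0.64 in KO and -0.6 in WT.

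Of 37 other fork and origin genes, 6 were called higher and 1 lower in KO (18.9%, beside 20.1% of all genes). In WT 6 were called higher and 6 lower (32.4%, beside 18.3% of all genes), and medians were 0.03 and 0.01. RNASEH2A at 0.32 and 0.24, POLD2 at 0.25 and 0.2 and ASF1B at 0.34 and 0.26 were higher in both. TIMELESS was higher in WT at 0.21, while ORC2 was lower at -0.32 and -0.28, and ASF1A at -0.39 and DNA2 at -0.33 in WT. Of 14 genes of deoxynucleotide supply DUT, which keeps dUTP out of DNA, was the 1 called (7.14% in each genotype, under the share of all genes). It was higher by 0.37 in KO (SE 0.06, adjusted p = 0.000117) and 0.26 in WT (SE 0.06, adjusted p = 0.00319). Of 27 genes of G2/M and mitosis, 6 were called higher and 1 lower in KO, and 2 higher and 5 lower in WT. These are 25.9% in each genotype, beside 20.1% and 18.3% of all genes, with medians of 0.13 and -0.01. UBE2C at 0.44 and 0.22 and CDC20 at 0.2 and 0.2 were higher in both, and ECT2 was lower at -0.22 and -0.27. CENPA at 0.36 and CDK1 at 0.42 were higher in KO, and KIF11 at -0.24 and BUB1B at -0.24 were lower in WT.

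The mean log2(CPM + 1) of the 41 genes was 6.31 to 6.32 in KO Aza, against 6.09 to 6.23 in KO DMSO, and 6.35 to 6.43 in WT Aza, against 6.21 to 6.28 in WT DMSO, at 72 h. Over the mitotic list it was 7.15 to 7.19 in KO Aza, against 6.98 to 7.06 in KO DMSO, and 7.16 to 7.26 in WT Aza, against 7.18 to 7.26 in WT DMSO. TF-1 markers moved in the same libraries: their sum was 1516 to 1603 CPM in KO Aza, against 968 to 1082 CPM in KO DMSO, and 1414 to 1488 CPM in WT Aza, against 936 to 953 CPM in WT DMSO, with 8 of 9 detected markers called higher in KO and 7 of 9 in WT. Their part in the values of the 41 genes was not tested. Markers of other cells summed to 20.5 to 44.9 CPM in KO Aza, against 18.7 to 59.7 CPM in KO DMSO, and to 6.18 to 8.2 CPM in WT Aza, against 4.67 to 6.24 CPM in WT DMSO.

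**Figure D4:**
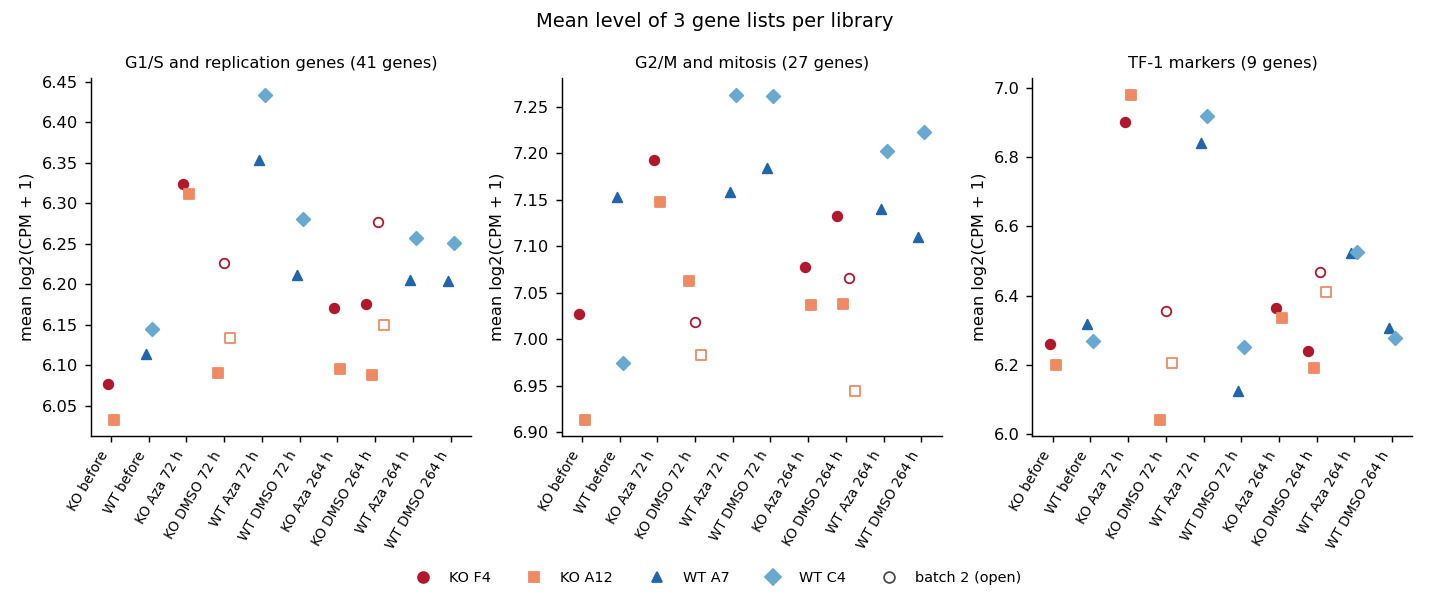
Mean log2(CPM + 1) of the 41 genes (left), of 27 genes of G2/M and mitosis (middle) and of 9 detected TF-1 markers (right) per library. Passing libraries are shown, without the batch 2 group labelled both before treatment and DMSO. Colour and shape give the clone, open points are batch 2, and the vertical axes do not start at 0. In the left and right panels the 72 h Aza libraries lie above the 72 h DMSO libraries of both genotypes, and in the middle panel WT Aza and WT DMSO overlap.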

How the data were processed

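RNA was sequenced from 26 libraries of TF-1 clones, from a TruSeq stranded mRNA kit per the labels' protocols, and 25 libraries were used. The authors deposited raw counts per gene, which the file headers describe as paired-mode counts over GENCODE 19 exons by featureCounts 1.6.2 with no strand option, so overlapping genes share reads. The submitters' processing notes also name STAR 2.6.1d, cutadapt, FastQC, DESeq2 and the hg19 (GRCh37) build.

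CPM with TMM library sizes were computed in edgeR 4.0.16 under R 4.3.3. Of 14 comparisons, 10 came from a fit of all 25 libraries with group, clone and batch terms (filterByExpr, robust quasi-likelihood test), and 4, of KO against WT, from the 4 batch 1 libraries of a condition. P-values were adjusted by Benjamini and Hochberg over all genes tested, and a call is an adjusted p under 0.05. P-values measure the spread between libraries of these clones, whose separate cultures the labels do not describe. Alternatives were DESeq2 1.42.0, other scaling, no filter, no clone terms, batch 1 alone, fewer groups, and libraries left out, exchanged or added; the fit was tested on simulated data. Clone IDs name the same cells and so pair libraries; their deviations correlated at 0.461 or more, apart from WT before treatment. Every same-group pair differed beyond sampling noise (18 pairs, lowest chi-square of 10.99 per degree of freedom). Levels between genes use RPKM from the deposited exon lengths.

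The members and lists were chosen with earlier results of these data known. One gene per role was named whatever its values, with any other called member (up to 12 per comparison), and up to 3 called genes each way per related list. Promoters and motifs were read from RefSeq.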

Additional observations from a re-analysis of the deposited data

Results flagged for a closer look

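The Aza effect at 264 h minus that at 72 h, on the log2 scale, differed by edgeR's test (adjusted p under 0.05) for 16 members in KO. It was -0.77 for E2F1, -0.58 for CCNE2, -0.42 for CDC25A, -0.6 for CDC6, -0.55 for CDT1, -0.25 for MCM2, -0.46 for MCM3, -0.31 for MCM4, -0.41 for MCM6 and -0.29 for MCM10. It was -0.25 for PCNA, -0.47 for TK1, -0.43 for SLBP, -0.4 for CHAF1B, -0.25 for UNG and 0.49 for POLA1.

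In WT the same difference was called for 8 members. It was -0.68 for E2F1, -0.42 for CDC25A, -0.56 for CDC6, -0.39 for CDT1, -0.35 for MCM3, -0.42 for TK1, 0.38 for GINS1 and 0.48 for POLA1. Of these 8, all but GINS1 were also called in KO, in the same direction.

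GINS4 at 25.1 CPM in the batch 1 KO DMSO library of clone F4 at 264 h lay apart from the other 3 libraries of its group. It was 1 of 41 groups of values tested for a sample far from the rest, and chance marks about 1 in 20.

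The library that failed quality control, labelled KO clone F4 in DMSO at 72 h, entered no comparison except in the alternative that included it. It lay above all 25 passing libraries for 15 members, below all for 6 and within their range for 20. The 15 were PCNA at 342 CPM, RFC4 at 151, GINS2 at 39.2, TK1 at 113, RFC2 at 67.1, RPA2 at 231, FEN1 at 163, TYMS at 206, CDC45 at 64.5, CDT1 at 139, MCM7 at 407, CCNE1 at 127, GINS3 at 25.2, POLA2 at 29.9 and CHAF1B at 73.2 CPM. The highest passing library had 231 CPM of PCNA and 29.1 CPM of GINS2.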

How the results depend on the processing

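The log2 fold change of PCNA in KO at 72 h was -0.14 with the failed library included (adjusted p = 0.609), the 1 value of a called member that changed sign. Members that were not called also changed sign, among them RFC3 (-0.07) and TYMS (-0.03) in KO at 72 h within batch 1, both below 0 there and above 0 in the fit of all libraries. Of the members called at 72 h, E2F1, CDC25A and MCM3 kept their call in all 14 alternatives in KO and all 13 in WT, and GINS1 in all 13 in WT.

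Shares of all genes called by the same fit stand in brackets below. The clone IDs pair the libraries, and without the clone block 11 members were called in KO (10.7%) and 7 in WT (9.42%) at 72 h. Counts were then 9 (4.90%) and 2 (2.19%) for the change with time, and 0 (0.614%) between DMSO times in KO. With the failed library included they were 8 (11.8%) in KO and 5 (5.90%) in WT at 72 h. They were 3 (3.22%) and 1 (1.09%) for the change with time and 0 (0.590%) between DMSO times in KO. With the groups compared alone they were 8 (14.0%) in KO and 20 (31.5%) in WT at 72 h. In WT they were 1 (7.14%) at 264 h and 3 (7.00%) between DMSO times. Batch 1 alone gave a member median of -0.216 for the change with time in KO, beside 0 over all genes. Between DMSO times in KO the median was 0.021, beside 0.004 over all genes. Both fits called fewer members and fewer of all genes than the main fit. Leaving out the WT libraries from before treatment gave 1 in WT at 264 h (1.94% of all genes) and 3 between DMSO times in KO (10.4%). Exchanging their labels gave 1 (1.76%) and 2 (9.04%), while DESeq2 gave 2 between DMSO times in KO (4.93%). Either way 18 members were called in KO and 18 in WT at 72 h, and 18 and 11 for the change with time. Shares of all genes were 26.1%, 24.0%, 18.7% and 11.1% in that order without those libraries. With labels exchanged they were 24.9%, 22.8%, 17.6% and 9.89%. With no filter, KO against WT gave 2 (2.45%) before treatment, 2 (3.52%) in 264 h DMSO, 2 (2.77%) in 72 h Aza and 3 (3.99%) in 264 h Aza.

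Leaving out 1 library at a time gave 11 to 16 members at 72 h in KO and 8 to 13 in WT, 10 to 16 and 5 to 7 for the change with time, and 0 to 2 between DMSO times in KO. For KO against WT member medians were -0.078 to -0.036 before treatment and -0.158 to -0.035 in 264 h DMSO. They were -0.131 to -0.036 in 72 h Aza and -0.132 to -0.039 in 264 h Aza, while all-gene medians lay between -0.009 and 0.015. Some of these fits called a few members, and those fits also called more of all genes than the main fit. Each such fit leaves 1 clone in a genotype, assumed to vary like the others. The cause of these moves was not tested. Every member had at least 8.12 CPM in the passing libraries, above the floor of 3 counts.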
